A study of Mus musculus with 5 samples.

Results

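The genes described here are Hlf, Mecom, Mllt3, Ctnnal1, Tcf15 and Pdzk1ip1, 6 of the 15287 genes in a table of single-cell transcriptomes from mouse bone marrow. They were chosen by name, as genes known for their activity in hematopoietic stem cells (HSCs), and all 6 had a row in the table. The cells came from untreated mice of strain Fgd5CreERT2/+Rosa26Tomato/+ at 20 weeks of age, so every group carried a heterozygous knock-in at the Fgd5 locus, from which the fluorescent protein ZsGreen and the recombinase CreERT2 are made, together with a Rosa26 Tomato allele that stays silent until the recombinase is activated. Lineage-negative, c-kit-positive, CD45.2-positive cells (Lin-kit+) were compared with Lin-kit+ cells positive for ZsGreen (Fgd5+) and with ZsGreen-positive cells that also met the surface phenotype of HSCs, Sca1+CD150+CD48- (HSC-Fgd5+). There were 3 Lin-kit+ libraries, called a, b and c, and 1 library for each reporter-positive gate. The number of mice was not stated, so n counts libraries, and the spread between them may be technical.

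Values are counts of unique molecular identifiers (UMIs), each of which marks 1 captured transcript, and a level is given as UMIs scaled to a total of 1000000 for the library or group of cells (CPM, counts per 1000000). The libraries held between 2166655 and 36080242 UMIs, with medians of 3721 to 6567 per cell. The deposited table marks libraries by a barcode suffix only, and the suffixes were assigned by the cell numbers stated for the populations (793 cells for Fgd5+, 519 for HSC-Fgd5+ and the other 3 suffixes for Lin-kit+), so each comparison between populations rests on that assignment. The title and the source of the reporter-positive samples disagree on which one had the HSC gate. Pairs of libraries shared between 0 and 31 cell barcodes, at most 0.771% of the smaller library. Of the Fgd5+ cells 98.2%, and of the HSC-Fgd5+ cells 98.8%, fell into 3 clusters in which at least 6 of 8 HSC markers were raised. The 10 leading genes of the largest of them (1042 of 1312 cells) held the HSC markers Sult1a1 and Procr, while those of the others held none. The HSC-Fgd5+ library stands apart in one respect, in that 405 of its 519 cells passed a filter of at least 1000 UMIs and under 10% mitochondrial UMIs, against 790 of 793 for Fgd5+.

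HSCs sit at the top of blood formation and are kept by a network of transcription factors that is shut down stepwise as cells commit to a lineage. Hlf encodes a PAR bZIP transcription factor that keeps HSCs quiescent. Mecom encodes the zinc finger protein EVI1 and a longer form that has a PR domain, and the gene is needed for HSC self-renewal. Mllt3 (also AF9) encodes a YEATS-domain reader of acylated histones that recruits the elongation machinery and the methyltransferase Dot1l. Tcf15 encodes a basic helix-loop-helix factor that pairs with E proteins, Ctnnal1 encodes alpha-catulin, a relative of alpha-catenin, and Pdzk1ip1 encodes MAP17, a small membrane protein that binds PDZ-domain scaffolds. Ctnnal1 and Pdzk1ip1 are best known in blood as markers of HSCs.

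The genes lie on several chromosomes of GRCm38 (GENCODE M21). Hlf spans chr11:90336536-90390895, Mecom chr3:29951296-30548008, Mllt3 chr4:87769925-88033364 and Ctnnal1 chr4:56810935-56865188, all on the minus strand. Tcf15 spans chr2:152143561-152149097 and Pdzk1ip1 chr4:115088708-115093899, both on the plus strand. No other annotated gene overlapped Hlf, Mllt3, Ctnnal1, Tcf15 or Pdzk1ip1. The Mecom locus, at 596713 bases, contained or overlapped 7 other annotated genes on both strands, among them Mecomos, so a share of the Mecom UMIs could belong to a gene that overlaps it.

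The promoters of the 4 genes with the most UMIs are shown because these genes rose together in the reporter-positive libraries, and because the factor Tcf15 is itself a partner of E proteins, which bind the E-box CANNTG. Each is the 250 bases before a RefSeq transcription start (GRCm38.p6), 5′ to 3′ on the strand of the gene, with every CANNTG in capitals. They are chr11:90390918-90391167 for Hlf, chr3:30509760-30510009 for the distal of the pair of listed Mecom starts, chr4:88033408-88033657 for the distal of the pair of Mllt3 starts, and chr4:115088458-115088707 for Pdzk1ip1. The table held promoters for 5 of the 6 genes and none for Tcf15.
Hlf: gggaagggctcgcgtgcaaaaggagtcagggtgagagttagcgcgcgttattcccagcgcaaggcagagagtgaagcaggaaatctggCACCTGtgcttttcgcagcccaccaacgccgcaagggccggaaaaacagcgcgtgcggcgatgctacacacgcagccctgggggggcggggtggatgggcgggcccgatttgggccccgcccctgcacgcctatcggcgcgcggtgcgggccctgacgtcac
Mecom: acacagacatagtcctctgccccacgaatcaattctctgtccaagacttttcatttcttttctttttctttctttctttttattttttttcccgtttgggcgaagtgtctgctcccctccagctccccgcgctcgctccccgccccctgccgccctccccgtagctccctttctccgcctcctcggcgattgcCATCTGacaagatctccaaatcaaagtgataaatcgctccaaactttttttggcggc
Mllt3: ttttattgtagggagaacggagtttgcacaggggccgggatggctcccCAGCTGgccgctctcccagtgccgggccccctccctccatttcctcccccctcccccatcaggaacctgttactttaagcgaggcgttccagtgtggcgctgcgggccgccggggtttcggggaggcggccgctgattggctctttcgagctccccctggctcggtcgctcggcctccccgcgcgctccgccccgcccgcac
Pdzk1ip1: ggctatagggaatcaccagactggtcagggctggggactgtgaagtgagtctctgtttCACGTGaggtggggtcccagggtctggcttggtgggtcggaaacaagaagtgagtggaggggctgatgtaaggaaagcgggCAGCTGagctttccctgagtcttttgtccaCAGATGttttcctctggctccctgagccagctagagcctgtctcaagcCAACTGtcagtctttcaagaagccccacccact

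The Hlf window held 1 E-box, CACCTG, 162 bases before the start. Mecom held CATCTG at 57 bases and Mllt3 held CAGCTG at 202 bases before the start. Pdzk1ip1 held 4, with CACGTG at 192 bases, CAGCTG at 111 bases, CAGATG at 81 bases and CAACTG at 33 bases. The Ctnnal1 window held none. The other listed start of Mecom had 0 E-boxes in its window, and that of Mllt3 had 3. The pattern CANNTG is the same on both strands, although the letters of a single E-box need not be. Of all 32851 promoter windows of this length, 66.2% held at least 1 E-box, so the presence of 1 does not set a promoter apart. CG dinucleotides numbered 26 in Hlf, 23 in Mllt3, 18 in Ctnnal1, 14 in Mecom and 3 in Pdzk1ip1, and 4 and 8 at the other starts of Mllt3 and Mecom, against a median of 6 and quartiles of 2 and 16 over all promoters. The palindromic PAR bZIP sequence TTACGTAA occurred in none of these windows, and in 0.113% of all windows. A match of letters is a description and not a measured binding site.

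The first comparison asked how far the level of each gene in reporter-positive cells stood from that of the bulk of Lin-kit+ progenitors. Hlf had 9.10, 8.40 and 8.70 CPM in Lin-kit+ a, b and c, 303 CPM in Fgd5+ and 306 CPM in HSC-Fgd5+. Both reporter-positive libraries were far above each Lin-kit+ library, and the fitted log2 fold change was 4.59 ± 0.08 (SE, n = 2 against 3 libraries; edgeR quasi-likelihood test, adjusted p = 6.56e-07). In such summed levels, more cells with the transcript and more transcript per cell cannot be told apart. Mecom had 2.3, 3.91 and 3.88 CPM in Lin-kit+ a, b and c, 171 CPM in Fgd5+ and 195 CPM in HSC-Fgd5+. Its groups did not overlap either, although Lin-kit+ a was lower than the other two, and its log2 fold change was 5.16 ± 0.18 (SE; edgeR, adjusted p = 2.72e-06). Mllt3 had 7.40, 7.17 and 7.29 CPM in Lin-kit+ a, b and c, 293 CPM in Fgd5+ and 304 CPM in HSC-Fgd5+. It was the most even of these genes within the Lin-kit+ libraries, with a mean of 7.29 ± 0.11 CPM (SD, n = 3), and its log2 fold change was 4.82 ± 0.08 (SE; edgeR, adjusted p = 6.56e-07).

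The genes known as surface or adhesion-related markers behaved alike in direction. Pdzk1ip1 had 9.80, 9.31 and 9.51 CPM in Lin-kit+ a, b and c, 282 CPM in Fgd5+ and 338 CPM in HSC-Fgd5+, with a log2 fold change of 4.48 ± 0.10 (SE; edgeR, adjusted p = 7.78e-07). Ctnnal1 was sparse, with 10, 20 and 40 UMIs in Lin-kit+ a, b and c, or 1.0, 1.07 and 1.11 CPM, and 91 and 59 UMIs in Fgd5+ and HSC-Fgd5+, or 21.8 and 27.2 CPM. Its groups did not overlap, and its log2 fold change was 3.95 ± 0.19 (SE; edgeR, adjusted p = 6.19e-06).

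Tcf15, the basic helix-loop-helix factor, was near the limit of detection. It had 0, 2 and 1 UMIs in Lin-kit+ a, b and c, 24 UMIs in Fgd5+ (5.76 CPM, 95% Poisson interval 3.69 to 8.57) and 4 UMIs in HSC-Fgd5+ (1.85 CPM, 0.503 to 4.73). The 0 in Lin-kit+ a allows a level of up to 0.300 CPM (3 counts in that library). Over the pooled counts, 28 against 3 UMIs, the level was 95.4 times higher in reporter-positive cells, with a 95% counting interval of 29.5 to 490. The fitted log2 fold change was 5.76 ± 0.75 (SE; edgeR, adjusted p = 0.000514), but the gene had too few UMIs to be tested without the Fgd5+ library or with equal numbers of cells per library. Intervals on UMIs cover counting error only.

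**Figure D1:**
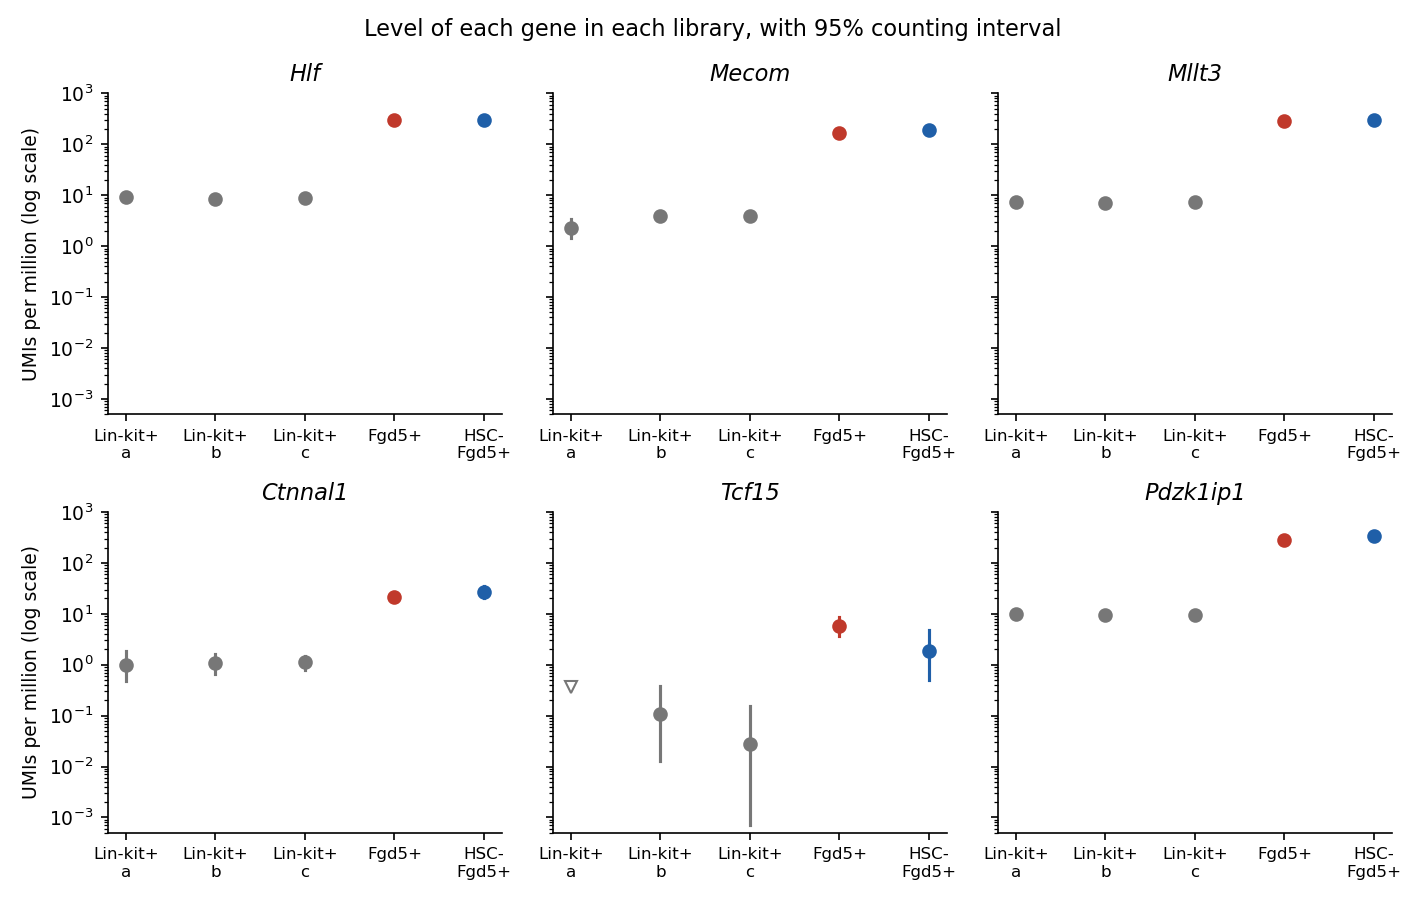
Level of each of the 6 genes in each library, in CPM on a log axis. Points are libraries (grey, Lin-kit+; red, Fgd5+; blue, HSC-Fgd5+), lines are 95% Poisson intervals, often smaller than the point, and the open triangle for Tcf15 marks the upper limit for the library with 0 UMIs. In every panel both reporter-positive libraries lie above the 3 Lin-kit+ libraries.

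All 6 genes passed the test in the higher direction, against a background in which 32.7% of the 11991 genes tested were called higher and 63.1% were called in either direction at an adjusted p of 0.05. All 6 were also at least 8-fold higher, as were 6.19% of all genes tested, where the 8-fold limit was set after the values had been seen. Scaling by library totals in place of TMM moved the median log2 fold change of all genes from 0.07 to 0.60 and the share of calls that were higher from 51.8% to 76.8%, and it raised each of the 6 genes by a similar amount, Hlf to 5.13 and Ctnnal1 to 4.48. The genes that define the gates moved with the 6 genes. Ly6a, which encodes Sca1, had a log2 fold change of 3.73, and Slamf1, which encodes CD150, had 3.36. Cd48 fell by 5.91 on the log2 scale. Fgd5 itself had 11 to 45 UMIs in the Lin-kit+ libraries and 25 and 22 in Fgd5+ and HSC-Fgd5+, with a log2 fold change of 1.94 (edgeR, adjusted p = 0.00182).

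Markers of other cell types were looked at beside these values. The summed level of 6 endothelial markers was 112 and 117 CPM in Fgd5+ and HSC-Fgd5+, against 26.5 to 30.3 CPM in the Lin-kit+ libraries. Pecam1 had 104 and 67 UMIs in Fgd5+ and HSC-Fgd5+, Tie1 183 and 97, and Emcn 150 and 73. In Lin-kit+ a, b and c most of the UMIs were of Pecam1 (266, 459 and 790), with 16, 40 and 78 of Tie1 and 14, 32 and 66 of Emcn. The higher level in reporter-positive cells thus lay mainly in Tie1 and Emcn. Kdr, another of these markers, was also higher, with 30 and 16 UMIs in Fgd5+ and HSC-Fgd5+ against 1, 8 and 7 in Lin-kit+ a, b and c. Cdh5, which defines endothelium, had 1 UMI in Fgd5+ and 0 in HSC-Fgd5+, and Plvap had 0 and 1. The summed level of 5 megakaryocyte markers was 261 and 153 CPM, against 104 to 140 CPM. Markers of late neutrophils summed to 1215 CPM in Fgd5+ and 6.92 CPM in HSC-Fgd5+, against 58542 to 69386 CPM in Lin-kit+. The part of these other cell types in the results was not tested.

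No test was possible between Fgd5+ and HSC-Fgd5+, with 1 library each. The ratio of HSC-Fgd5+ to Fgd5+ was 1.01 for Hlf, 1.04 for Mllt3, 1.14 for Mecom, 1.20 for Pdzk1ip1 and 1.25 for Ctnnal1. Tcf15 went the other way with a ratio of 0.321, and its counting intervals in the libraries overlapped. The Poisson intervals overlapped as well for Hlf (287 to 320 and 284 to 331 CPM), whereas those of Pdzk1ip1 did not (266 to 299 and 314 to 363 CPM).

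Because a deeper cell shows more genes, shares of cells with a UMI were computed for cells with at least 2000 UMIs, each thinned to that number. Hlf was then found in 45.6% of Fgd5+ cells (95% Wilson interval 42.1 to 49.2, 766 cells) and 42.4% of HSC-Fgd5+ cells (37.5 to 47.4, 383 cells). Among Lin-kit+ cells it was found in 2.13%, 1.76% and 2.08% of cells in a, b and c. Without thinning the shares were 71.9% and 61.8% in the reporter-positive libraries, where HSC-Fgd5+ had the lower median depth. At this depth most reporter-positive cells showed no UMI of Hlf, and a cell without one cannot be taken as a cell that does not express the gene.

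The other genes had the same pattern of shares. Mecom was found in 30.4% and 29.6% of thinned Fgd5+ and HSC-Fgd5+ cells, Mllt3 in 42.5% and 41.6%, and Pdzk1ip1 in 44.5% and 49.3%. Ctnnal1 was found in 3.99% and 4.83%, and Tcf15 in 1.07% and 0.451%. In the Lin-kit+ libraries the thinned shares averaged 0.856% ± 0.193 for Mecom, 1.46% ± 0.18 for Mllt3, 2.35% ± 0.38 for Pdzk1ip1 and 0.212% ± 0.021 for Ctnnal1 (SD, n = 3). As a background from a cell type not known for these genes, late neutrophil-like Lin-kit+ cells (1892 cells, median 5152 UMIs) gave 0.528% for Hlf, 0.211% for Pdzk1ip1, 0.140% for Mllt3, 0.0302% for Ctnnal1, 0.0156% for Mecom and 0 for Tcf15. For all 6 genes the share in both reporter-positive libraries was above that in each Lin-kit+ library. How many of all genes separate in this way was not computed, so this count has no background beside it. In the test of summed levels, 32.7% of all genes tested were called higher.

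Co-detection asked whether the genes fell in the same reporter-positive cells. After thinning, 20.9% of Fgd5+ cells and 19.7% of HSC-Fgd5+ cells had UMIs of both Hlf and Mllt3. The product of the separate shares gave 149 Fgd5+ cells with both, and 160 were counted, a ratio of 1.08. In HSC-Fgd5+ the ratio was 1.12. Mllt3 and Pdzk1ip1 had ratios of 1.14 and 1.09, and Mecom and Mllt3 had 1.15 and 1.02. Hlf and Mecom, at 1.03 and 1.03, and Hlf and Pdzk1ip1, at 1.03 and 1.01, were found together about as often as their shares alone would give.

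Of the 10 pairs without Tcf15, 9 had a ratio above 1 in both libraries. Some were only just above it, such as Ctnnal1 and Pdzk1ip1 at 1.04 and 1.02, and no interval was computed for the ratios. How many pairs of other genes lie above 1 was not computed either, so this count has no background beside it. The exception was Hlf with Ctnnal1, at 0.860 and 0.834, which rests on 12.0 and 6.54 thinned cells with both genes and was above 1 without thinning (mean 1.04). Pairs with Tcf15 gave fewer than 5 expected cells and are not described further. No ratio was above 1.22, that of Mllt3 and Ctnnal1 in Fgd5+. With thinning to 1000 or 3000 UMIs, with the filter on cells, or in the main HSC-like cluster alone, 8 of the 10 pairs were above 1 in both libraries. In that cluster the mean ratio of Hlf and Mllt3 was 1.06, against 1.10 over all reporter-positive cells. The part of differences between clusters in these ratios was not tested.

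**Figure D2:**
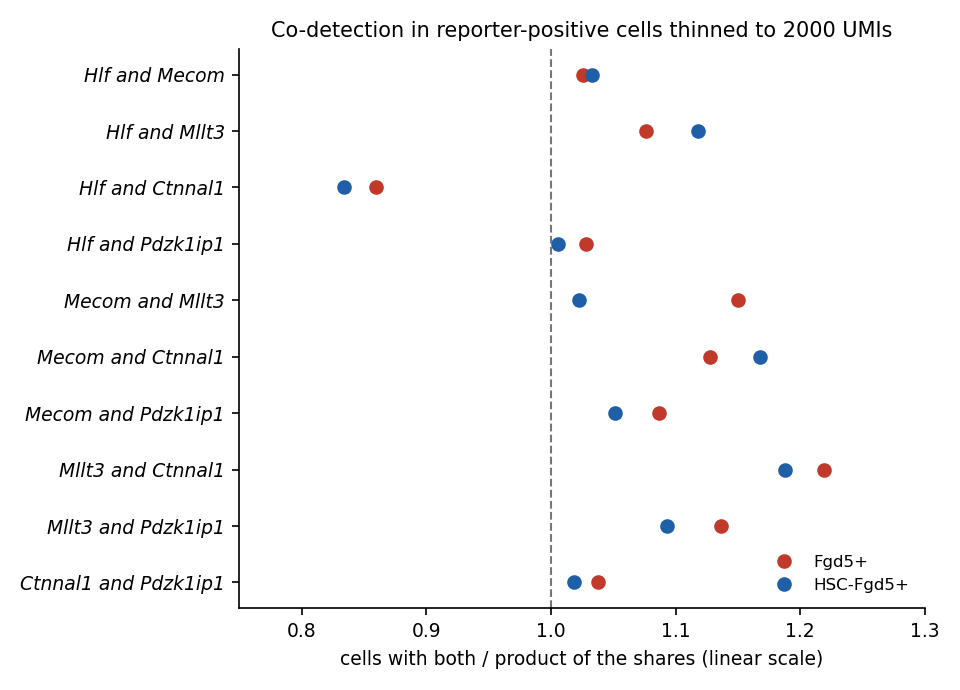
Co-detection of 10 pairs of genes in reporter-positive cells thinned to 2000 UMIs. The x axis is the number of cells with both genes over the number given by the product of their shares, points are the Fgd5+ (red) and HSC-Fgd5+ (blue) libraries, and the dashed line marks 1; all pairs but Hlf with Ctnnal1 lie above 1 in both libraries, none above 1.22.

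Counting the genes per cell, in 1 seeded thinning of each cell, set reporter-positive cells apart from the rest. At least 2 of the 6 genes were found in 55.4% of Fgd5+ cells and 54.8% of HSC-Fgd5+ cells, and in 0.734% to 0.911% of the cells of each Lin-kit+ library. At least 3 were found in 22.8% and 21.1%, and in 13 Lin-kit+ cells in all. Of these 13 cells, 9 lay in 1 cluster, which is described next.

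Where the genes persisted in Lin-kit+ cells was read from clusters made without the 6 genes among the variable genes. A cluster of 518 Lin-kit+ cells, 4.71%, 4.44% and 4.44% of libraries a, b and c, was led by Wfdc17, Gm5111 and Stxbp4 and is called the Wfdc17-led cluster. It had more markers of HSCs than of any other list but was not named, since its 10 leading genes held Flt3, a marker of lymphoid-primed multipotent progenitors (LMPPs), and none of HSCs. Its level of Ly6a was 168 CPM and of Procr, the endothelial protein C receptor, 53.0 CPM, against 270 and 132 CPM in reporter-positive cells of the HSC-like clusters. Its Slamf1 was 2.50 CPM against 37.4, its Cd48 157 CPM against 0.805, its Flt3 88.0 CPM against 11.6 and its Cd34 517 CPM against 88.7.

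The 6 genes were retained to different degrees in the Wfdc17-led cluster. Hlf had 142, 148 and 163 CPM in a, b and c, or 49.6% ± 3.5 of the level in reporter-positive cells (SD, n = 3 libraries). Mecom had 30.5, 67.3 and 75.5 CPM, or 32.2% ± 13.3, with library a on 9 UMIs the lowest. Pdzk1ip1 had 64.4, 62.9 and 74.4 CPM, or 22.3% ± 2.1. Mllt3 had 27.1, 28.2 and 34.2 CPM, or 10.1% ± 1.3. In each of the 3 libraries Hlf was the highest of these 4 genes on this relative scale and Mllt3 the lowest, and the relative level of Hlf was 4.93 times that of Mllt3. Ctnnal1 had 0, 2 and 5 UMIs in a, b and c, and Tcf15 had none.

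The size of these percentages depends on where the edge of the cluster falls. Under 8 other clusterings, the cluster that held most of these cells had 491 to 1722 Lin-kit+ cells, and the level of Hlf there was 16.8% to 51.0% and that of Mllt3 4.64% to 11.3% of the reporter-positive level. The ratio of the relative levels of Hlf to Mllt3 was between 3.53 and 4.71 under all 8. At Leiden resolution 2 its counterpart (491 cells) met the limits for the name HSC-like. Clusters were made from the expression of the same cells, so no test was made between them.

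The Wfdc17-led cluster held a large part of the molecules of some of these genes. With 2.48% of all Lin-kit+ UMIs, it held 44.1% of the Hlf and 44.1% of the Mecom UMIs, 18.0% of the Pdzk1ip1 UMIs and 10.6% of the Mllt3 UMIs of the Lin-kit+ cells. Another 14.6% of the Hlf and 20.3% of the Mecom UMIs were in an unnamed cluster led by Slco3a1, Cd34 and Ccl9 (750 cells), at 19.0 and 11.1 CPM. Only 21 Lin-kit+ cells lay in the HSC-like clusters, 7, 8 and 6 in a, b and c, and their levels, 169 CPM for Hlf and 202 CPM for Mllt3 on 10 and 12 UMIs, had Poisson intervals of 80.9 to 310 and 105 to 354 CPM. These intervals are too wide to order the genes in those cells.

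Outside the HSC-like clusters, the highest level of Mllt3 was in erythroid-like cells. In erythroid-like cells (287 cells, with markers such as Car1, a carbonic anhydrase, and Klf1, the master factor of red cell genes) it had 65.4, 52.3 and 41.0 CPM in a, b and c, or 17.8% ± 4.1 of the reporter-positive level (SD, n = 3). This was above its level in the Wfdc17-led cluster in every library, and 24.0% of all Lin-kit+ Mllt3 UMIs lay in these cells, which hold 3.74% of all UMIs. Hlf had 0, 0 and 3 UMIs and Mecom 0, 0 and 1 in the same cells. Under other clusterings the Mllt3 level of the erythroid-like class was 30.01 to 52.6 CPM, and the order against the Wfdc17-led cluster depends on where the class ends. At Leiden resolution 2 an erythroid-like cluster of 312 cells had 51.4 ± 12.8 CPM of Mllt3, and another of 515 cells had 18.6 ± 9.4 CPM (SD, n = 3). The counterpart of the Wfdc17-led cluster had 33.6 ± 6.4 CPM there, above the 515-cell cluster in every library and, in library c, also above the 312-cell cluster (40.0 against 38.5 CPM).

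Pdzk1ip1 was retained along the megakaryocyte and erythroid branches. A cluster of 978 Lin-kit+ cells with Gata1, Klf1 and the platelet gene Pf4 among its markers, left unnamed because it mixes markers of erythroid cells and of megakaryocytes, had 81.9, 71.1 and 79.7 CPM of Pdzk1ip1 in a, b and c, or 25.7% ± 1.9 of the reporter-positive level. It held 37.4% of the Pdzk1ip1 UMIs of Lin-kit+ cells, more than any other cluster, and its Hlf level was 5.05 CPM. At a finer resolution the highest Pdzk1ip1 level among clusters of at least 50 Lin-kit+ cells was in a megakaryocyte-like cluster rich in Pf4 (341 cells, 3156 CPM of Pf4), at 127 ± 19 CPM (SD, n = 3). An erythroid-like cluster of 515 cells had 49.1 ± 14.5 CPM.

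Megakaryocyte-like cells (317 cells) had 43.3, 74.3 and 50.5 CPM of Pdzk1ip1 and 64.9, 47.3 and 43.8 CPM of Hlf, or 18.6% ± 5.4 and 17.1% ± 3.7 of the reporter-positive levels. The Hlf value is not firm, since it lay between 9.29 and 50.2 CPM under the clusterings that gave a megakaryocyte-like class, while Pdzk1ip1 lay between 45.5 and 104 CPM. Of the 3 Tcf15 UMIs in all Lin-kit+ cells, 2 were in megakaryocyte-like cells and 1 in a cell of the HSC-like clusters.

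The remaining classes were low. LMPP-like cells (419 cells) had 15.6 CPM of Mllt3, 13.3 of Hlf and 11.6 of Mecom but 4.63 of Pdzk1ip1. Mast or basophil-like cells had 20.6 CPM of Pdzk1ip1 and 13.7 of Mllt3. Dendritic-like cells had 10.3 CPM of Mllt3, on 17 UMIs, and 1 UMI each of Hlf and Mecom. In early and late neutrophil-like and monocyte-like cells no gene of the 6 exceeded 3.37 CPM, the level of Mllt3 in monocyte-like cells.

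**Figure D3:**
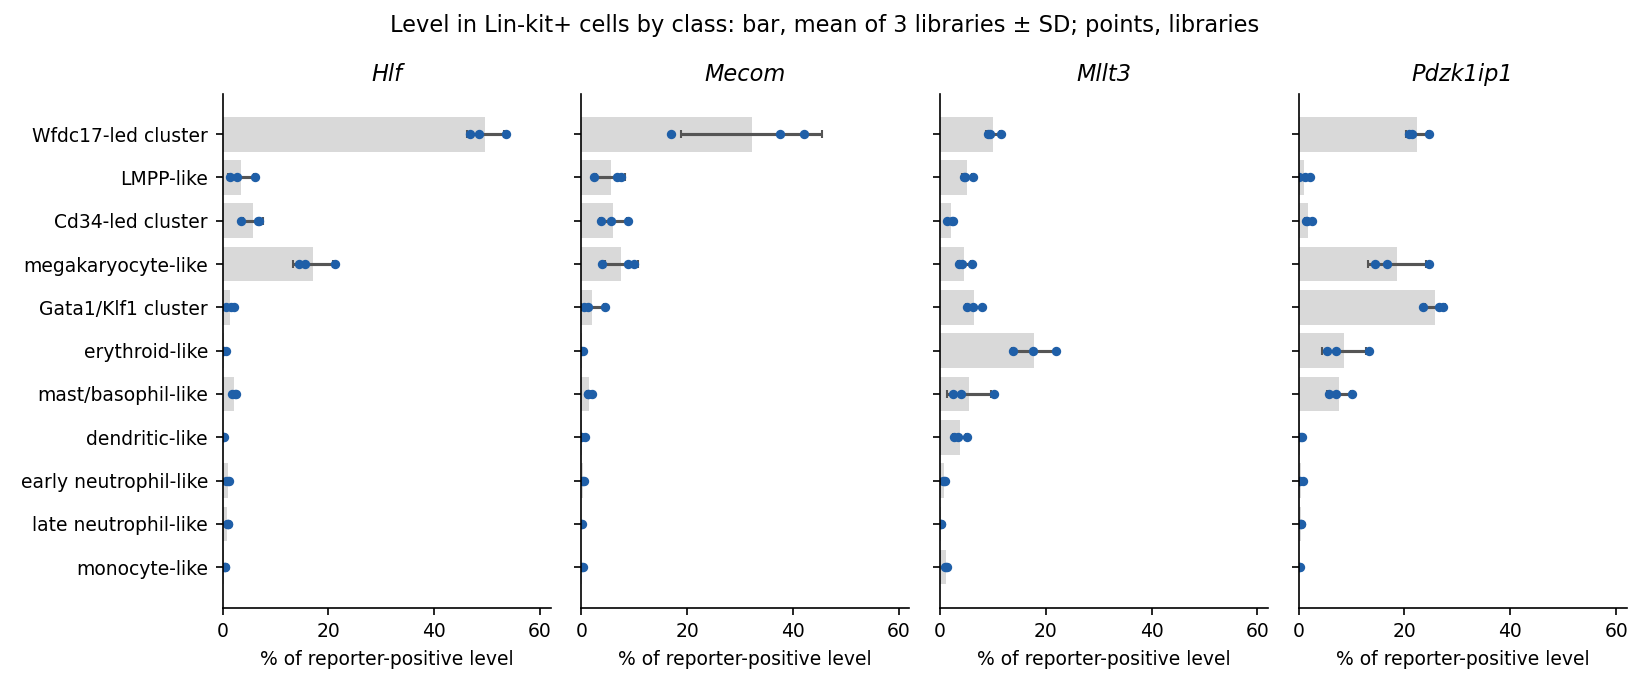
Level of Hlf, Mecom, Mllt3 and Pdzk1ip1 in the Lin-kit+ cells of each class with at least 50 cells, as a percentage of the level in reporter-positive cells (x axis). Bars are means of the 3 Lin-kit+ libraries, error bars are SDs and blue points are libraries. Hlf and Mecom peak in the Wfdc17-led cluster, Mllt3 in erythroid-like cells and Pdzk1ip1 in the Gata1/Klf1 and Wfdc17-led clusters.

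The genes also varied among the reporter-positive cells. Most lay in 1 main HSC-like cluster (1042 of 1312 cells). A dividing cluster held 57 Fgd5+ and 31 HSC-Fgd5+ cells, with 301 and 337 CPM of the proliferation gene Mki67 in Fgd5+ and HSC-Fgd5+, against 6.70 and 1.26 in the main cluster. A shallow cluster held 20 Fgd5+ and 142 HSC-Fgd5+ cells, the latter with a median of 12.9% mitochondrial UMIs. In dividing cells Mllt3 had 89.7 CPM in Fgd5+ and 75.6 CPM in HSC-Fgd5+, against 337 and 342 CPM in the main cluster. The ratios were 0.266 (95% counting interval 0.198 to 0.350) and 0.221 (0.140 to 0.332). Pdzk1ip1 had ratios of 0.439 and 0.443, Hlf of 0.553 and 0.612, and Mecom of 0.581 and 0.614. The interval for Mllt3 lay below that of Hlf and that of Mecom in both libraries (0.449 to 0.675 and 0.460 to 0.802 for Hlf). All 4 genes had a lower CPM in dividing cells in both. Dividing cells held more UMIs, with medians of 9509 and 9812 against 4238.5 and 4397 in the main cluster, so the levels are shares of a larger total. Counted per cell, Hlf was not lower, with 107 UMIs in 57 dividing and 1123 in 702 main Fgd5+ cells, and 60 in 31 and 489 in 340 HSC-Fgd5+ cells. Mecom also had more UMIs per dividing cell in both libraries, whereas Mllt3 and Pdzk1ip1 had fewer.

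Ctnnal1 and Tcf15 had 10 and 3 UMIs in the dividing Fgd5+ cells and 8 and 1 in those of HSC-Fgd5+, and the interval of the ratio for Ctnnal1 included 1 in both libraries. In the shallow cluster of HSC-Fgd5+ cells Hlf had 473 CPM and Mecom 347 CPM, above their levels of 309 and 190 CPM in the main cluster, whereas Mllt3, at 381 CPM, and Pdzk1ip1, at 343 CPM, had intervals that overlapped those of the main cluster. The part of cell quality in these values was not tested. With the main cluster alone as the reporter-positive cells, the log2 fold changes over Lin-kit+ were 4.68 for Hlf, 5.03 for Mllt3 and 5.23 for Mecom, and with the filter on cells 4.56, 4.83 and 5.14.

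**Figure D4:**
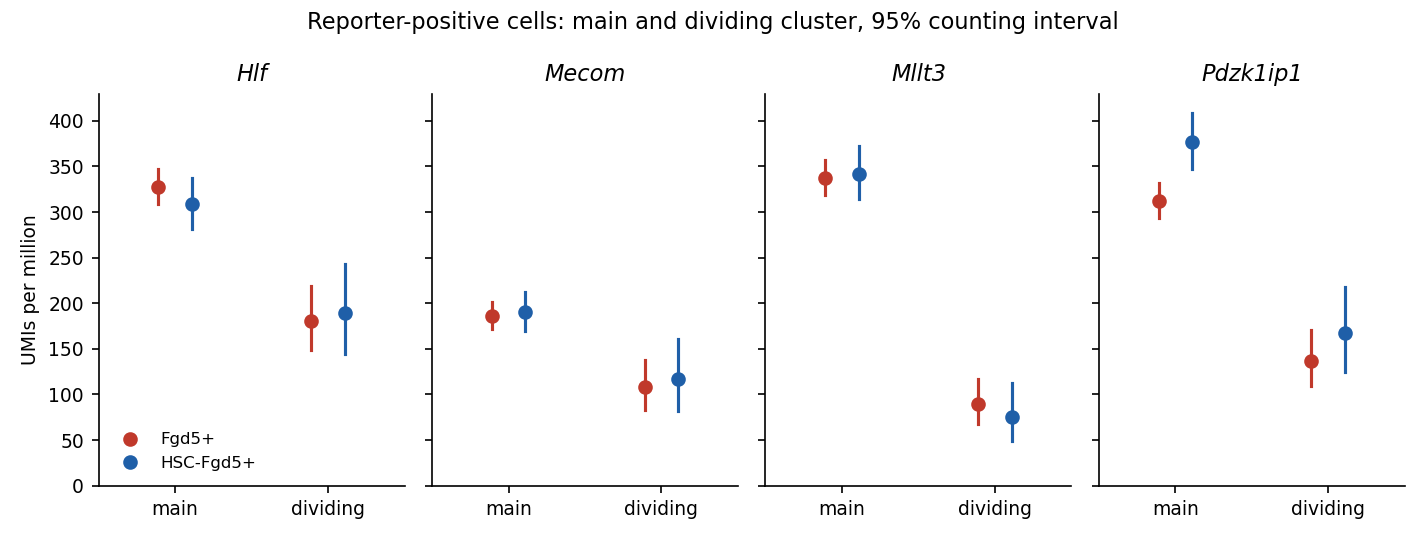
Levels of 4 genes, in CPM, in the main and the dividing cluster of reporter-positive cells, for the Fgd5+ (red) and HSC-Fgd5+ (blue) libraries with 95% Poisson intervals. Each gene has a lower CPM in the dividing cluster in both libraries, where cells hold more UMIs in all, and Mllt3 falls from 337 and 342 to 89.7 and 75.6.

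The families and partners of the 6 genes were taken from lists. Among the relatives of Hlf, the PAR bZIP factors Tef and Dbp rose, with log2 fold changes of 1.90 and 1.38, and Nfil3, the repressor that competes for the same sites, fell by 1.80 (edgeR, adjusted p = 0.0256). The call for Nfil3 was lost with scaling by library totals (adjusted p = 0.0851). Of 7 PR-domain factors tested, 4 rose, 0 fell and 3 did not pass, a share called (57.1%) below the 63.1% of all genes tested. Those that rose included Prdm16 (2.42), which is itself required for HSC maintenance, Prdm11 (1.85) and Prdm2 (0.76). The list median was 0.76, against 0.07 for all genes tested.

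The list of relatives and partners of Mllt3 held 16 YEATS proteins, elongation factors and Dot1l-complex genes. Of these, 9 rose, 0 fell and 7 did not pass, with a median of 0.42. The share called, 56.2%, was below the 63.1% of all genes tested, and the share called higher was above 32.7%. The largest changes were in Kmt2a, the H3K4 methyltransferase also called MLL (1.63), Ell2 (1.39), Mllt6 (1.14) and Aff3 (1.09). Mllt1 (ENL), the closest relative of Mllt3, had 4.80, 5.03 and 4.82 CPM in Lin-kit+ a, b and c and 6.96 and 6.92 CPM in Fgd5+ and HSC-Fgd5+, with a TMM-scaled log2 fold change of -0.03 (edgeR, adjusted p = 0.948), and Dot1l had -0.32 (adjusted p = 0.107). With library totals 14 of the 16 were called higher, as were 54.9% of all genes tested, so the count for this list depends on the scaling.

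Among the junction genes related to Ctnnal1, 4 of 6 tested rose and 2 fell, where 32.7% of all genes tested rose and 30.4% fell. Jup (plakoglobin, 1.22), Ctnnd1 (p120-catenin, 0.80) and Ctnnb1 (beta-catenin, 0.48) rose, and Vcl, vinculin, fell by 0.88. The other gene that fell was Cdh1, E-cadherin, with 96 UMIs in Lin-kit+ and 0 in reporter-positive cells, at least 3.13-fold lower with 3 counts over the reporter-positive group, which was named after its values were seen. Of the partners of Tcf15, the E proteins Tcf4 (1.19) and Tcf12 (0.94) rose, while Id2 and Id1, which block E proteins, fell by 2.62 and 1.95. Id3, of the same family, had too few UMIs to be tested (35 in all) and did not fall. It had 0.800, 0.375 and 0.222 CPM in Lin-kit+ a, b and c and 0.960 and 3.69 CPM in Fgd5+ and HSC-Fgd5+. Tcf3 (0.72, adjusted p = 0.0706) did not pass, with 64.3 and 28.6 CPM in the reporter-positive libraries, but was called higher with library totals (adjusted p = 0.00658). Among the PDZ partners and relatives of Pdzk1ip1, Slc9a3r2 (NHERF2, 2.99) and Smim24 (0.62) rose. Slc9a3r1 (NHERF1) fell by 0.53, a call lost with library totals, where its log2 fold change was 0.01.

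Of 29 other stem and progenitor transcription factors tested, 28 rose, 0 fell and 1 did not pass, with a median of 2.22. Over all genes tested, 32.7% were called higher and 63.1% in either direction, with a median of 0.07. The largest changes were in Ndn (necdin, 6.73), Hoxb2 (6.23), Mycn (5.42) and Hoxb5 (5.36). Runx1, the factor required for the emergence of HSCs in the embryo, was the one that did not pass (0.27, adjusted p = 0.269), and it was called higher with library totals (0.81, adjusted p = 0.0077). This list was chosen for its known activity in stem cells, with earlier results known, and its direction is not independent evidence.

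**Figure D5:**
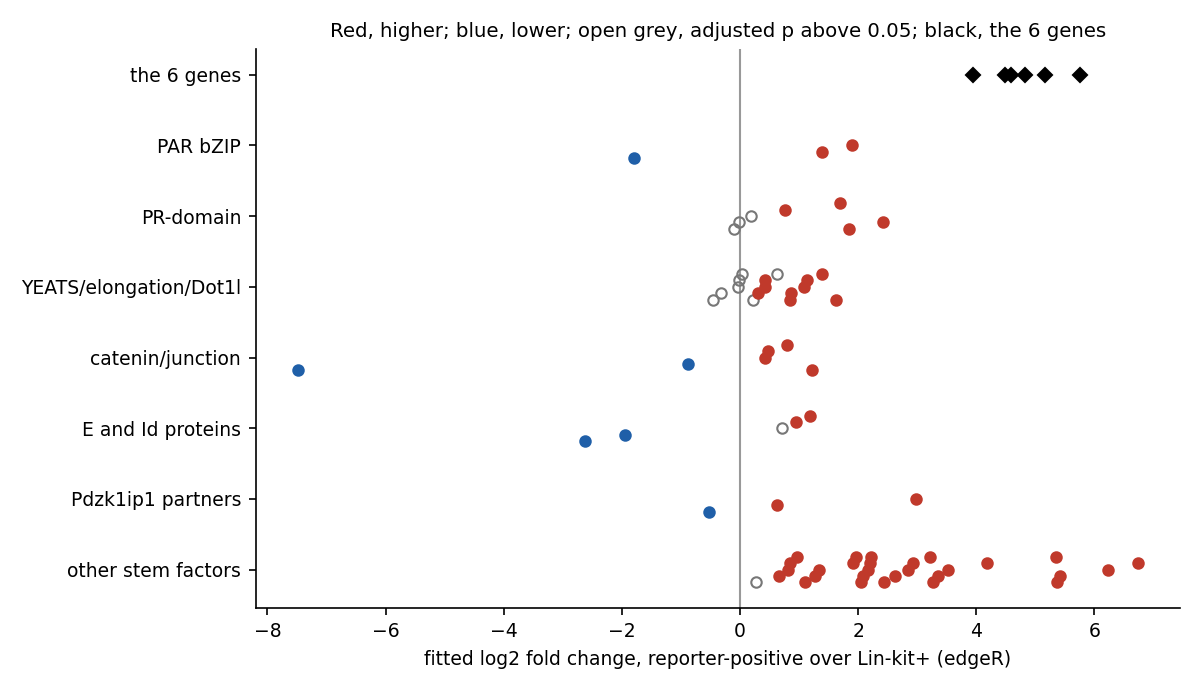
Fitted log2 fold changes (x axis, reporter-positive over Lin-kit+, edgeR with TMM) of the 6 genes (black diamonds) and of the tested genes of each list (red, called higher; blue, called lower; open grey, adjusted p above 0.05). The 6 genes lie between 3.95 and 5.76, and the far left point is Cdh1, whose reporter-positive libraries are both at 0, so that its fitted value is no bound.

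The genes with the pattern most like each of the 6 were ranked by Pearson's r of log2(CPM + 1) over 13 points, the 2 reporter-positive libraries and 11 classes or clusters of pooled Lin-kit+ cells. These points share libraries, and r is a description of them. Hlf was closest to Hoxa10 (r = 0.975), Casp12 (0.974) and Emcn (0.972), and Mecom to Hoxa10 (0.994), Gm19590 (0.992) and Casp12 (0.988). Mllt3 was closest to Mier1 (0.977), Ppp2r3d (0.976) and Wasl (0.969), and Pdzk1ip1 to Fam110b (0.960), Golga1 (0.959) and Zfhx2 (0.959). For Ctnnal1 they were Pafah1b1 (0.981), Pcmtd1 (0.980) and Ccser2 (0.974), and for Tcf15, which had UMIs in a single one of the Lin-kit+ classes, Cenpt (0.928), Pcbd2 (0.927) and D030056L22Rik (0.911).

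Among the 6 genes themselves the closest pair was Hlf and Mecom (r = 0.977), and Hlf and Mllt3 (0.722) were less alike than any other pair but Tcf15 and Pdzk1ip1 (0.701). Hoxa10 illustrates the pattern of the former pair, with 34.3 and 42.9 CPM in Fgd5+ and HSC-Fgd5+, 18.7 CPM in the Wfdc17-led cluster and 0.413 CPM in erythroid-like cells. Mier1, the gene most like Mllt3, had 77.5 and 95.1 CPM in the reporter-positive libraries, 43.7 CPM in the Wfdc17-led cluster and 51.2 CPM in erythroid-like cells.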

How the data were processed

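Sorted bone marrow cells of mice were profiled in 5 libraries with droplet chemistry that counts the 3' ends of transcripts (10x Chromium v2). Per the labels and their processing notes, the authors ran Cell Ranger (1.3 and 2.1) on mm10 and list Seurat 2.3.4; the annotation version is not given in the sources used here. Whole-number UMI counts of 15287 genes in each cell, not normalized, were deposited and used unchanged. All cells were kept.

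Counts were summed per library and tested with the quasi-likelihood method of edgeR 4.0.16 in R 4.3.3, after TMM scaling and filterByExpr, with Benjamini-Hochberg adjustment over all genes. The script was tested on simulated data, and DESeq2 1.42.0 was an alternative. Clusters came from log-transformed counts scaled per cell (2000 variable genes without the 6 genes, 20 principal components, 15 neighbours, Leiden resolution 1, scanpy 1.11.5, leidenalg 0.10.2) and were named when at least 3 markers of 1 list had a fold of 2 and were detected in 5% of cells, the list with the largest share of its markers giving the name, unless the 10 leading genes held more markers of another list. These limits were chosen once the clusters were known. Cells marked as doublets by Scrublet stayed in, and leaving them out was an alternative. Shares of cells are the exact expectation of thinning each cell to 2000 UMIs, with Wilson intervals. Levels carry 95% Poisson intervals, and a count of 0 allows 3 counts. Depth of 2166655 to 36080242 UMIs per library sets the precision of each value.

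Named were the 6 genes, for each of them the 3 genes with the highest r among genes with at least 200 UMIs, up to 4 called genes per list with the largest change and at least 100 UMIs, and the gate genes. Mllt1, Dot1l, Tcf3, Id3, Runx1 and Cdh1 were added after their values were seen. One gene that this rule names is not reported here. The genes, lists and comparisons were chosen with earlier results of these data known. Sequences are from RefSeq (GRCm38.p6).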

Additional observations from a re-analysis of the deposited data

How the results depend on the processing

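Hlf, Mecom, Mllt3, Ctnnal1 and Pdzk1ip1 were called higher under all 12 alternatives of the test between reporter-positive and Lin-kit+ libraries, and Tcf15 under the 10 in which it could be tested. The log2 fold changes ranged from 4.50 to 5.13 for Hlf, 4.97 to 5.70 for Mecom, 4.72 to 5.36 for Mllt3, 3.80 to 4.48 for Ctnnal1, 5.18 to 6.60 for Tcf15 and 4.35 to 5.02 for Pdzk1ip1. Over all genes, 3921 were called higher and 3646 lower, and scaling by library totals gave 6586 and 1993. Leaving out 1 library gave 5964 to 7668 calls, of which 2784 to 3917 were higher and 3149 to 3751 lower, and 5 to 6 of the 6 genes.

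The level of Hlf in the Wfdc17-led cluster, 49.6% of the reporter-positive level, was 16.8% at Leiden resolution 0.5, 29.9% with 30 neighbours, 31.5% with 1000 variable genes, 27.1% without cell cycle genes, 31.9% with the 6 genes kept among the variable genes, 33.4% with the filter on cells and 33.3% without doublets. For Mllt3, 10.1%, it was 4.64%, 7.91%, 6.68%, 6.87% and 8.74% under the first 5 of these. The cluster was wider under each of them. Leaving out 1 Lin-kit+ library gave 47.6% to 51.0% for Hlf, 9.32% to 10.5% for Mllt3 and a ratio of 4.85 to 5.11.

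In Lin-kit+ cells of clusters with at least 4 HSC markers, 4 of the 6 genes were above the other Lin-kit+ cells in every library, 2 with 30 neighbours, and 4 to 5 without 1 library. The exceptions in the main setting were the sparse Ctnnal1, with 0 UMIs in such cells of library a, and Tcf15, with 0 in a and c. How many of all genes separate in this way was not computed, so these counts have no background beside them.

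No paired analysis was possible because the labels give no replicate numbers, and those used here only name the libraries in accession order. Depth limits Tcf15 and Ctnnal1, with the fewest UMIs of the 6 genes, and 1 library per reporter-positive gate leaves no test between the gates.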
